A study of Mus musculus with 8 samples.

Results

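The genes described here make, sense and clear prostaglandin E2. They are the cyclooxygenases Ptgs1 and Ptgs2, the prostaglandin E synthases Ptges and Ptges2, the EP receptors Ptger1, Ptger2, Ptger3 and Ptger4, and the dehydrogenase Hpgd. They were taken by symbol from the expression table, which lists all 9 among its 23361 genes. Of these, 8 passed the filter on low values, at least 1 FPKM in 3 or more samples, which left 14357 genes in all, and Ptger2 did not.

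RNA was sequenced from 5 cancers and from 3 control tissues of the mouse gastric squamous-columnar junction (SCJ), the border between the keratinized forestomach and the glandular stomach. The cancers are labelled Trp53-/-Rb1-/-. They arose in Lgr5-eGFP-Ires-CreERT2 mice with floxed Trp53 and Rb1 alleles and the Ai9 tdTomato reporter, months after tamoxifen, and the red signal guided their dissection. Cre is driven by Lgr5, so that only Lgr5+ cells and their progeny lose both genes, and other cells in a tumor keep them. Controls were SCJ of age-paired wild type mice, so cancer, genotype, Cre, reporter and tamoxifen cannot be told apart. Neither the labels nor the methods say whether each cancer came from a separate mouse, and p-values measure the spread between these samples.

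Prostaglandin E2 starts with phospholipases A2, which free arachidonic acid from membranes. Cyclooxygenases turn it into prostaglandin H2, which the terminal synthases convert into prostaglandin E2. EP2 and EP4 (Ptger2, Ptger4) raise cyclic AMP, EP3 (Ptger3) mostly lowers it and EP1 (Ptger1) acts through calcium. The transporter Slco2a1 takes prostaglandins into cells, where Hpgd oxidizes them and reductases finish their inactivation. In the stomach, prostaglandin E2 is known for sustaining mucus and bicarbonate secretion and for restraining acid.

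Values are FPKM, a level per transcript length, rounded to whole numbers, which leaves low genes few possible values. Their sums were 403569 to 573858 in the cancers and 887141 to 992550 in the controls, and read depth is unknown. Rescaling every library to the same sum, called TPM here, moved the median log2 fold change over the 14357 tested genes from -0.038 to 0.81. A value of 0 can be a failed estimate, and a gene with it is said to be listed at 0. Trp53 FPKM were 12 to 30 in the cancers and 16 to 19 in the controls, and Rb1 FPKM 4 to 6 and 9 to 10. Cancer 1 stood apart, with the parietal cell markers Atp4a and Atp4b and all 5 squamous markers listed at 0 and a summed lymphocyte marker FPKM of 138, against 2 to 10 elsewhere. Fewer cells of a type and less RNA per cell cannot be told apart in such bulk samples.

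Among the members, Ptger4 rose, Ptges2 and Ptger3 fell, and Hpgd lay lower in every cancer without passing the test. The cyclooxygenases, Ptges and Ptger1 did not pass. Limma on log2(FPKM + 1) called 3 of the 8 tested members at an adjusted p under 0.05, 1 higher and 2 lower, or 37.5%. Of all tested genes 34.5% were called, 16.2% higher and 18.3% lower, so the members' share was near the background. The groups did not overlap for 3 members, 1 higher and 2 lower, and for 34.1% of all genes, 14.4% higher and 19.8% lower. The median log2 fold change was -0.18 over the tested members and -0.038 over all genes. With TPM, 3 members were called higher and 0 lower, where 50% of all genes were called higher and 3.68% lower.

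**Figure D1:**
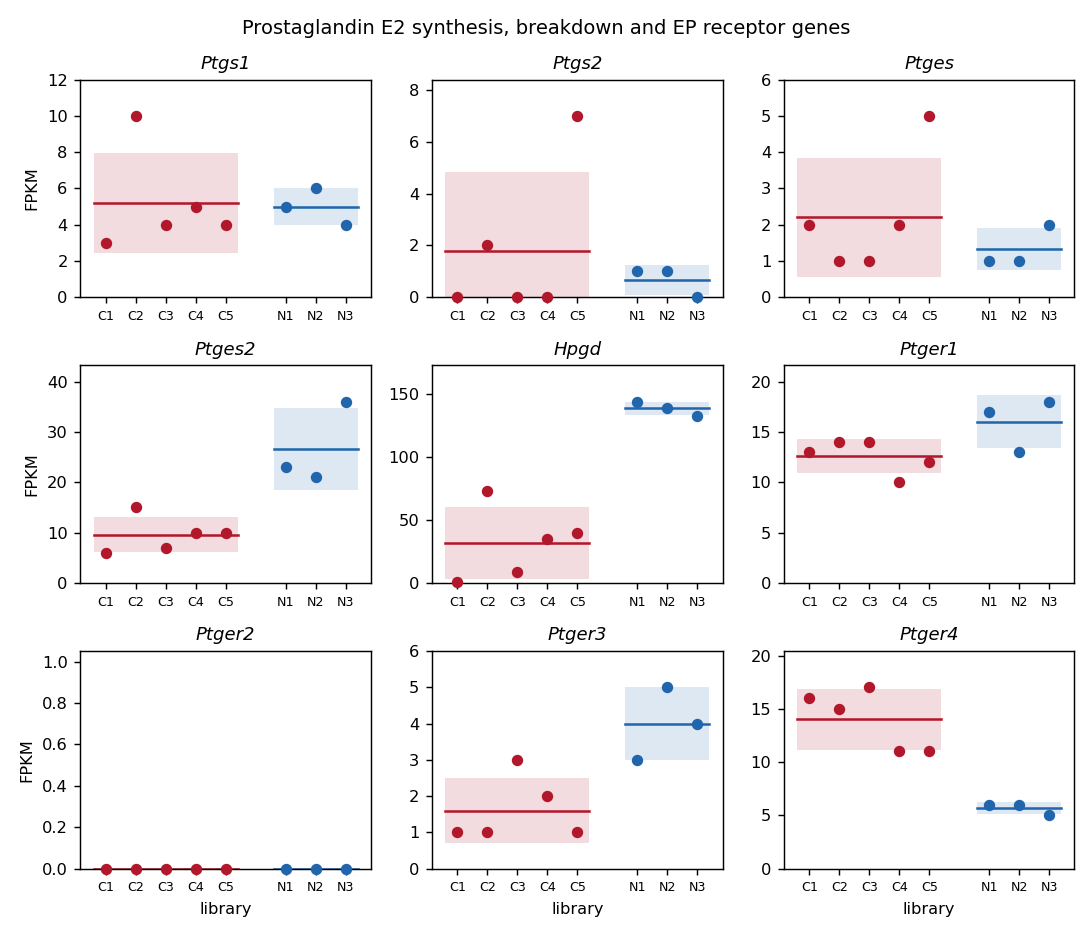
Deposited FPKM of the members in each library, cancers in red and controls in blue, with 1 panel per gene, its own linear axis, and the mean (line) and SD (shading) of each group. Ptger4 is at 11 to 17 in the cancers and 5 to 6 in the controls, Ptges2 is at 6 to 15 and 21 to 36, and Hpgd spreads from 1 to 73 in the cancers beside 133 to 144 in the controls.

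The promoters of Ptger4, Ptges2 and Hpgd are shown because these are the members whose groups did not overlap. RefSeq windows of the mouse build GRCm38.p6, from 250 bases before to 50 bases after a gene's start, exist for 8 of the 9 members. The windows are Ptger4 on the minus strand of chr15:5244138-5244437, Ptges2 on the plus strand of chr2:32395640-32395939 and Hpgd on the plus strand of chr8:56294302-56294601. The Ptger4 window lies upstream of the locus that the table lists for this gene and surrounds the start of a longer model, at position 5244187, whereas the other windows hold the listed start. Capitals mark matches to 6 motifs searched on both strands, listed after the sequences.
Ptger4: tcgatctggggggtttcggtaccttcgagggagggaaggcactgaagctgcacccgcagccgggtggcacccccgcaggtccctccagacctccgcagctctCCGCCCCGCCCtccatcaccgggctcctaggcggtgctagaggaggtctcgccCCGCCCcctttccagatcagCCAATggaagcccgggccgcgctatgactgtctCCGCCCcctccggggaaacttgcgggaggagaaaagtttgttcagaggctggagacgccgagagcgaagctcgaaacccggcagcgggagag
Ptges2: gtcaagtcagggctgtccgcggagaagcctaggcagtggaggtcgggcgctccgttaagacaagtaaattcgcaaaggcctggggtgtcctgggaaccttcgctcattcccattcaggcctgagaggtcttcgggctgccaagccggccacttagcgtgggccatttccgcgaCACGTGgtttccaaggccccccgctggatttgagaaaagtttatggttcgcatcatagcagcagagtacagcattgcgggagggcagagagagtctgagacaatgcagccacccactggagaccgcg
Hpgd: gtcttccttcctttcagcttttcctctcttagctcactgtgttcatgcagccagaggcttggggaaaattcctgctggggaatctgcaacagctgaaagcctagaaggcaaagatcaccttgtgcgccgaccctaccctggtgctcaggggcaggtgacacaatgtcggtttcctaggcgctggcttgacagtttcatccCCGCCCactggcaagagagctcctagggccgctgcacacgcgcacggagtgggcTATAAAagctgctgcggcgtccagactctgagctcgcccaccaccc

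The capitals in the Ptger4 window are 4 GC boxes (GGGCGG, here on the other strand as CCGCCC), which begin 148, 143, 95 and 42 bases upstream of the start and of which the first pair shares a base, and 1 CCAAT box (CCAAT) 75 bases upstream. The Ptges2 window holds 1 E-box (CACGTG) 77 bases upstream. The Hpgd window holds 1 GC box 50 bases upstream and 1 TATA box (TATAAA), which lies just after the RefSeq start and 29 bases before the start of the GENCODE model at position 56294585. Of all 32851 windows of this length, 35.7% hold the GC box, 37.4% the CCAAT box, 13.6% the TATA box and 7.15% the E-box. The half-site of the cAMP response element (TGACG, in 20.8% of windows) was found once among the members, in Ptgs2. The E2F site (TTTCCCGC, TTTGGCGC, TTTCGCGC or TTTGCCGC, in 2.26%) was found in 0 members. A match describes letters in the window and is neither a site nor a cause.

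Ptgs1, the cyclooxygenase that many tissues express constantly (chr2:36230426-36252269, mm10), had FPKM of 3, 10, 4, 5 and 4 in cancers 1 to 5, against 5, 6 and 4 in controls 1 to 3. The groups overlapped, with cancer 2 above and cancer 1 below every control. Means were 5.2 ± 2.77 (SD, n = 5) and 5 ± 1 (SD, n = 3), and the log2 fold change was -0.034 (95% interval -0.78 to 0.71, limma adjusted p = 0.94). With TPM it was 0.81 (limma adjusted p = 0.048), equal to the shift of all genes. Ptgs2, the inducible cyclooxygenase (chr1:150100124-150108012), was at 0, 2, 0, 0 and 7 FPKM in the cancers, against 1, 1 and 0 in the controls. Cancers 1, 3 and 4 were thus listed at 0, and the mean rested mainly on cancer 5. The log2 fold change of 0.25 (95% interval -1.48 to 1.98, limma adjusted p = 0.81) became -0.27 without cancer 5. Neither cyclooxygenase therefore differed beyond the spread between samples on the deposited scale, and for Ptgs2 the interval is wide.

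Ptges, the inducible microsomal synthase (chr2:30889471-30903297), was also low, at 2, 1, 1, 2 and 5 FPKM in the cancers, against 1, 1 and 2 in the controls. Cancer 5 was highest, as for Ptgs2, and the other cancers lay within the control range. The log2 fold change was 0.36 (95% interval -0.52 to 1.23, limma adjusted p = 0.48). Ptges2, a membrane-associated synthase (chr2:32395890-32402740), was more abundant than Ptges, with FPKM of 6, 15, 7, 10 and 10 in the cancers, against 23, 21 and 36 in the controls. Every cancer lay below every control. The mean fell from 26.7 ± 8.14 (SD, n = 3) to 9.6 ± 3.51 (SD, n = 5), or 2.78-fold. The log2 fold change was -1.41 (SE 0.30, limma adjusted p = 0.012, two-sided exact permutation p = 0.018, the smallest that 5 against 3 allow). With TPM the log2 fold change was -0.51 (limma adjusted p = 0.11), below the shift of all genes but no longer past the threshold.

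Among the receptors, Ptger4 (chr15:5233404-5243831), which couples to adenylyl cyclase, had FPKM of 16, 15, 17, 11 and 11 in the cancers, against 6, 6 and 5 in the controls. Every cancer was above every control. The mean rose 2.47-fold, from 5.67 ± 0.577 (SD, n = 3) to 14 ± 2.83 (SD, n = 5). The log2 fold change was 1.15 (SE 0.18, limma adjusted p = 0.0042, two-sided exact permutation p = 0.018), and with TPM 2.09 (limma adjusted p = 0.00098). Of the exonic bases of its GENCODE model, 15.3% are shared with the pseudogene Gm15937 and 1.23% with Ttc33, both on the opposite strand, and the use of strand is not known. The Ptger4 call stayed past the threshold without each sample in turn, with limma adjusted p of 0.0048 to 0.022. Macrophages are among the cells known to carry EP4. Their 7 markers, of which 3 were called higher and 0 lower, had none at 0 in any library and summed to 140 to 390 FPKM in the cancers and 44 to 74 in the controls. The 5 endothelial markers summed to 13 to 43 and 7 to 10 FPKM. The 6 lymphocyte markers overlapped between groups, at 2 to 138 FPKM in the cancers and 3 in each control. Neuroendocrine markers were also higher in every cancer, at 7722 to 17143 FPKM against 122 to 184. The part of any of these cell types in the Ptger4 rise was not tested.

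Ptger3 (chr3:157566892-157644758) moved the other way, with FPKM of 1, 1, 3, 2 and 1 in the cancers, against 3, 5 and 4 in the controls. The groups met at 3 FPKM, where cancer 3 equalled control 1. The mean fell 2.5-fold, from 4 ± 1 (SD, n = 3) to 1.6 ± 0.894 (SD, n = 5), with a log2 fold change of -0.99 (SE 0.28, limma adjusted p = 0.033, two-sided exact permutation p = 0.054). The call was lost without cancer 1, 2 or 5 (limma adjusted p = 0.062, 0.055 and 0.061), without control 1, 2 or 3 (0.058, 0.12 and 0.094) and with TPM (log2 fold change -0.35, limma adjusted p = 0.45). Mast cells are among the cells known to carry EP3. Their 7 markers, several of which passed the filter only through the controls, summed to 1 to 9 FPKM in the cancers and 29 to 48 in the controls, with 6 of 7 at 0 in cancers 1, 3 and 5. Mast cell markers were not alone in this, as the parietal cell markers summed to 0 to 2146 FPKM in the cancers and 3971 to 7343 in the controls. The part of either cell type in the Ptger3 values was not tested.

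Ptger1 had listed FPKM of 13, 14, 14, 10 and 12 in the cancers, against 17, 13 and 18 in the controls. The groups overlapped, and the log2 fold change was -0.32 (95% interval -0.69 to 0.054, limma adjusted p = 0.16). With TPM both the sign and the call turned, at 0.61 (limma adjusted p = 0.048), below the shift of all genes. These values are uncertain as a measure of the receptor, because the table gives Ptger1 a locus wider than its gene model and the use of strand in the quantification is not given in the sources used here. Ptger2 (chr14:44988111-45003820), the other receptor that raises cyclic AMP, was listed at 0 in all 8 libraries and was not tested.

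The summed FPKM of the EP receptors overlapped between groups, with 30, 30, 34, 23 and 24 in the cancers, against 26, 24 and 27 in the controls, while their make-up did not. A share within a library does not move with the scaling of that library. Ptger4 made up 53.3%, 50%, 50%, 47.8% and 45.8% of the sum in the cancers, against 23.1%, 25% and 18.5% in the controls. The means were 49.4% ± 2.80 (SD, n = 5) and 22.2% ± 3.33 (SD, n = 3). The Ptger3 share was 5.67% ± 2.84 (SD, n = 5) and 15.7% ± 4.71 (SD, n = 3), also without overlap. Since Ptger1 is uncertain, Ptger4 was also set against Ptger3 alone, a choice made after the values were seen. Its share of that pair was 84.6% to 94.1% in the cancers and 54.5% to 66.7% in the controls.

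**Figure D2:**
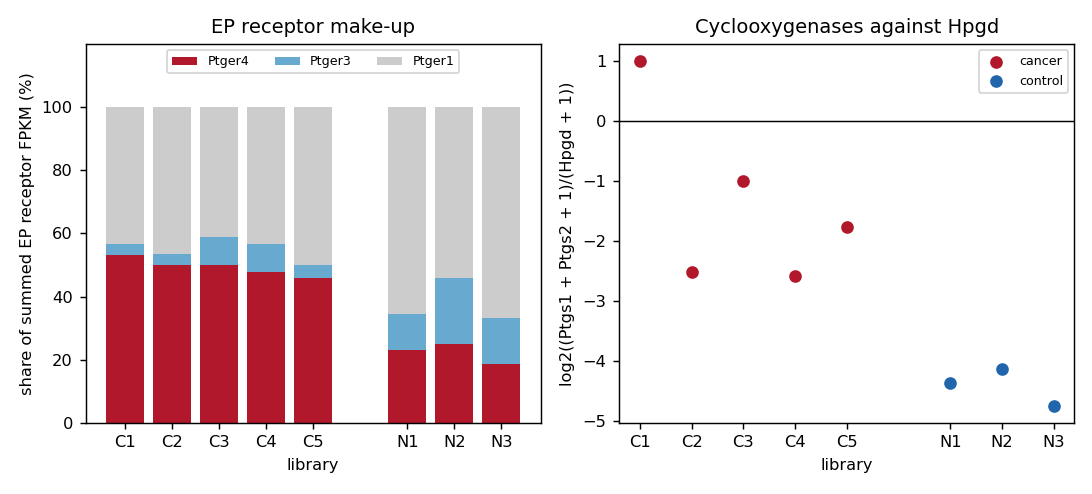
Left, share of Ptger4, Ptger3 and Ptger1 in the summed EP receptor FPKM of each library (C, cancers, N, controls, Ptger2 listed at 0), and right, the log2 ratio of summed cyclooxygenase FPKM to Hpgd FPKM, 1 point per library. The Ptger4 share is 45.8% to 53.3% in the cancers and 18.5% to 25% in the controls, and the ratio is above -2.6 in each cancer and below -4.1 in each control.

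Hpgd, the enzyme that starts prostaglandin inactivation (chr8:56294552-56321046), had the highest mean FPKM of the members in both groups. Its FPKM were 1, 73, 9, 35 and 40 in the cancers, against 144, 139 and 133 in the controls. Every cancer lay below every control, from 0.721% of the control mean in cancer 1 to 52.6% in cancer 2. The means were 31.6 ± 28.5 (SD, n = 5) and 139 ± 5.51 (SD, n = 3). The log2 fold change was -2.91 (SE 1.10, 95% interval -5.45 to -0.37) and missed the threshold (limma adjusted p = 0.071, two-sided exact permutation p = 0.054). Single libraries decided this side of the threshold. Without cancer 1 the value was -2.11 (limma adjusted p = 0.048) and without cancer 2 -3.41 (limma adjusted p = 0.046), and without any other library the adjusted p was 0.082 to 0.17.

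The balance of cyclooxygenase to Hpgd transcripts was taken as log2((Ptgs1 + Ptgs2 + 1)/(Hpgd + 1)) within a library. It was 1.0, -2.51, -1.0, -2.58 and -1.77 in the cancers, against -4.37, -4.13 and -4.74 in the controls. Each cancer was above each control, and cancer 1 was the only library with more cyclooxygenase than Hpgd FPKM. The means of -1.37 ± 1.47 (SD, n = 5) and -4.42 ± 0.31 (SD, n = 3) differed by 3.04, and by 2.45 to 3.34 without each sample in turn. The summed cyclooxygenase FPKM overlapped, at 3 to 12 in the cancers and 4 to 7 in the controls, whereas Hpgd did not.

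Ordered by mean FPKM in the controls, Hpgd came first, followed by Ptges2, Ptger1, Ptger4, Ptgs1, Ptger3, Ptges and Ptgs2. The ranges of Ptger4 and Ptgs1, of Ptgs1 and Ptger3 and of Ptges and Ptgs2 overlapped, and those of the other neighbours in this order did not. In the cancers the order was Hpgd, Ptger4, Ptger1, Ptges2, Ptgs1, Ptges, Ptgs2 and Ptger3. There each gene's range overlapped that of the next, although within libraries Ptges2 was above Ptgs1 in each of the 5 cancers.

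Hpgd varied 144-fold over the 8 libraries beside the markers of pit and neck mucous cells, the surface and gland cells that secrete gastric mucus. This comparison was chosen after the values were seen. The summed FPKM of the 6 markers Muc5ac, Gkn1, Gkn2, Tff1, Tff2 and Muc6 was 0.366%, 38.5%, 2.77%, 24.5% and 8.43% of the control mean in cancers 1 to 5 and 77.5% to 114% in the controls, a 310-fold range. Tff1, Gkn2 and Gkn1 carried most of this sum. The neck cell markers Tff2 and Muc6 overlapped between groups and in cancer 2, at 7031 and 48 FPKM, were above every control. Only 1 of the 6 markers was itself called, as lower, and 2 of them were listed at 0 in cancer 1. Hpgd per 1000 FPKM of these markers was 1.45, 1.0, 1.72, 0.757 and 2.51 in the cancers, against 0.701, 0.951 and 0.621 in the controls, a 4.05-fold range with overlap. Without cancer 1, where Hpgd was at a rounded 1 FPKM, the ranges were 16-fold for Hpgd, 41-fold for the markers and 4.05-fold for the ratio. Both Hpgd and the markers were lowest in cancers 1 and 3 and highest in cancer 2. So were Ptges2, Cbr1, Pla2g10, the summed tuft cell markers and the FPKM sums of the libraries, so this order is not particular to Hpgd and mucous markers. The parietal markers also lay lower in every cancer, at 0 to 2146 FPKM against 3971 to 7343. The part of these cells in the Hpgd values was not tested.

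**Figure D3:**
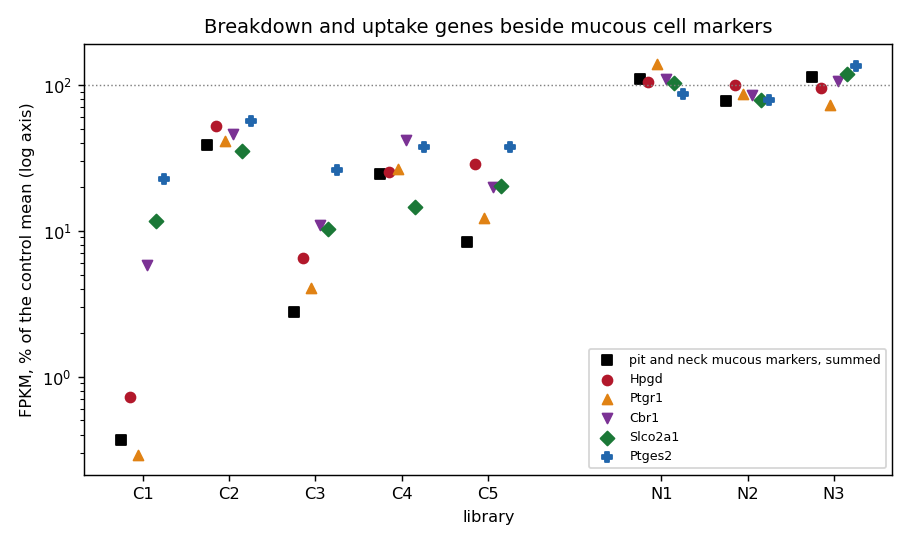
FPKM of Hpgd, Ptges2 and other prostaglandin genes and the summed FPKM of 6 mucous cell markers in each library, as a percent of the control mean on a log axis (C, cancers, N, controls). In cancer 1 the markers are at 0.366%, Hpgd at 0.721% and Ptgr1 at 0.289%, whereas Ptges2 is at 22.5%.

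The other 24 genes of the prostaglandin pathway were all in the table, and 18 were tested. Limma called 2 higher and 6 lower, or 44.4% beside 34.5% of all genes, and 1 of the 2, Tbxa2r, passed the filter only through the cancers, where it is high. The median log2 fold change of the 18 was -0.98, and with TPM -0.38, where that of all genes was -0.038 and 0.81. With TPM 5 were called higher and 1 lower, where 50% of all genes were called higher and 3.68% lower. On the uptake and breakdown side, the transporter Slco2a1 had FPKM of 8, 24, 7, 10 and 14 in the cancers, against 71, 54 and 81 in the controls. Every cancer lay below every control, and the log2 fold change was -2.47 (SE 0.37, limma adjusted p = 0.0037). With TPM it was -1.56 (limma adjusted p = 0.0049), which made Slco2a1 the gene of this list called lower on both scales.

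The reductase Zadh2, which acts on the oxidized product of Hpgd, had FPKM of 11 to 19 in the cancers and 34 to 40 in the controls (log2 fold change -1.32, SE 0.19, limma adjusted p = 0.0033, and 0.084 with TPM). Ptgr2, of the same step, had 11 to 15 and 22 to 24 FPKM (log2 fold change -0.69, SE 0.13, limma adjusted p = 0.0085), but its sign turned with TPM, at 0.24, and its call was lost with quantile normalization (-0.43, limma adjusted p = 0.11). Of the exonic bases of Ptgr2, 32.0% are shared with the antisense gene Gm47484, which makes it uncertain. Ptgr1, the remaining reductase, was at 3, 425, 42, 274 and 127 FPKM in the cancers, against 1447, 904 and 758 in the controls. All 3 reductases were thus lower without overlap between groups, as were 19.8% of all genes tested, while Ptgr1, with the widest spread, missed the threshold (log2 fold change -3.71, SE 1.4, limma adjusted p = 0.076). Its order of cancers was that of the summed mucous markers and of the summed tuft cell markers, most of which was Avil. Cbr1, Pla2g10, the FPKM sums of the libraries and, with ties, the summed mast cell markers had the same order. The order was thus not particular to mucous or tuft cell markers.

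Among the other terminal enzymes, Cbr1, a carbonyl reductase that converts prostaglandin E2 to F2α, had FPKM of 27, 216, 51, 195 and 93 in the cancers, against 510, 397 and 494 in the controls (log2 fold change -2.37, SE 0.67, limma adjusted p = 0.031). Fam213b, a prostaglandin F synthase now named Prxl2b, had 9 to 14 and 29 to 34 FPKM (log2 fold change -1.34, SE 0.17, limma adjusted p = 0.0020). Both fell without overlap between groups. The Cbr1 call was lost without cancer 3 or 5 (limma adjusted p = 0.070 and 0.057), without control 1, 2 or 3 (0.098, 0.077 and 0.093) and with TPM (0.051). Fam213b lost its call with TPM (limma adjusted p = 0.11). Of the phospholipases, Pla2g4b fell from 6, 9 and 12 FPKM to 1, 1, 2, 4 and 3 (log2 fold change -1.70, limma adjusted p = 0.013), with 66.5% of its exonic bases shared with the read-through gene Gm28042. Its call was lost without control 3 (limma adjusted p = 0.052) and with TPM (0.070). Pla2g6, a calcium-independent phospholipase, rose from 3, 4 and 4 FPKM to 10, 10, 9, 5 and 8 (log2 fold change 0.98, SE 0.23, limma adjusted p = 0.015, and 0.065 without control 1). Pla2g4a, the cytosolic enzyme that releases arachidonic acid on calcium signals, was at 2, 10, 4, 12 and 6 FPKM in the cancers, against 19, 17 and 11 in the controls. It missed the threshold (log2 fold change -1.25, limma adjusted p = 0.077). Pla2g10 was at 0, 69, 5, 43 and 14 FPKM in the cancers, against 191, 94 and 112 in the controls. Its groups did not overlap, but it missed the threshold too (log2 fold change -3.38, limma adjusted p = 0.077). The thromboxane receptor Tbxa2r was at 1 FPKM in cancers 1 to 4 and listed at 0 in cancer 5 and the controls, a single step of the rounded scale, and its call (limma adjusted p = 0.045) is no support for a rise. This call was lost without any of cancers 1 to 4 (limma adjusted p = 0.070 to 0.088), without any control (0.12 each), without the filter (0.051) and with quantile normalization (0.39).

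**Figure D4:**
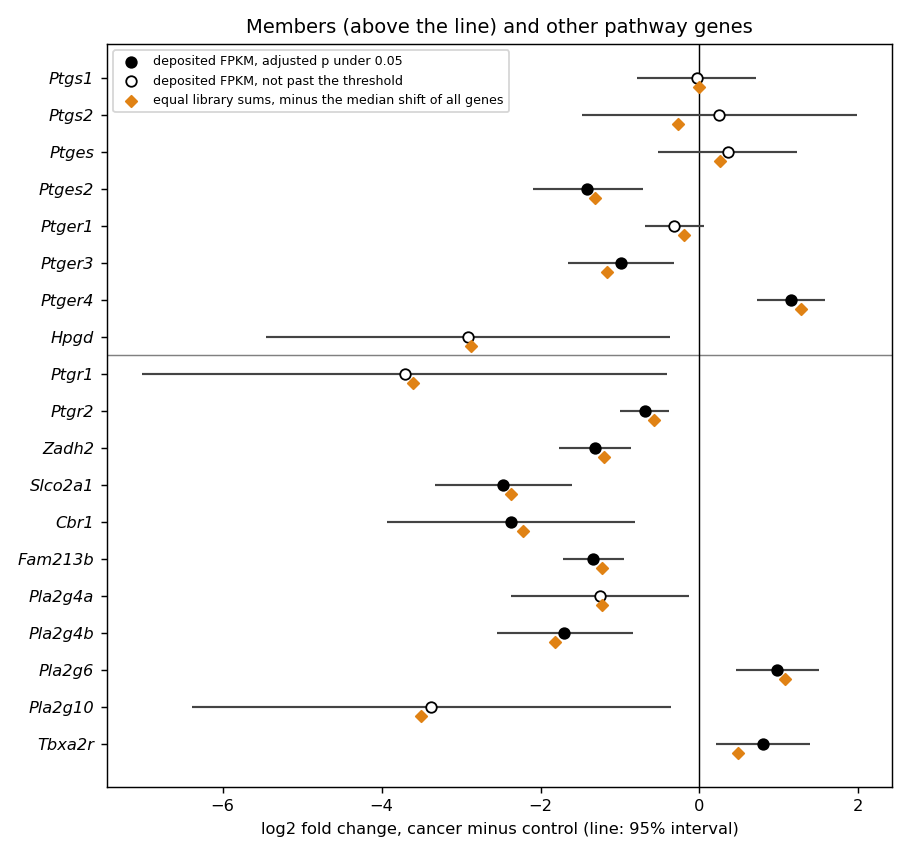
Log2 fold change (cancer minus control) of the 8 tested members, above the line, and of 11 other pathway genes, with 95% intervals from limma, filled where the adjusted p is under 0.05, and diamonds for libraries rescaled to equal sums after subtracting the median of all genes. Ptger4 lies at 1.15 and Ptges2 at -1.41, and Hpgd at -2.91 has an interval from -5.45 to -0.37.

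The lipoxygenase branch, which draws on the same arachidonic acid, had 12 genes in the table and 10 tested, of which 0 rose and 2 fell, or 20% called, where 34.5% of all genes were called and 18.3% as lower. With TPM 2 were called higher and 1 lower, where 50% of all genes were called higher and 3.68% lower. The median log2 fold change moved from -0.45 to 0.084 with TPM, and that of all genes was then 0.81. The 2 genes that fell on the deposited scale are epidermal lipoxygenases. Alox12b had FPKM of 0, 0, 3, 8 and 6 in the cancers, against 15, 27 and 41 in the controls (log2 fold change -3.14, limma adjusted p = 0.026), and Aloxe3 had 0 to 2 and 4 to 7 (log2 fold change -1.99, SE 0.40, limma adjusted p = 0.0097). The Alox12b call was lost with pseudocounts of 0.1 and 0.01 (limma adjusted p = 0.076 and 0.13), with TPM (0.054), without cancer 3 (0.051) and without control 1, 2 or 3 (0.056, 0.079 and 0.095). That of Aloxe3 was lost with the pseudocount of 0.01 (0.11). The 5 squamous markers summed to 0, 16, 303, 1588 and 476 FPKM in cancers 1 to 5 and 1533 to 2572 in the controls, and like both genes they were lowest in cancers 1 and 2. Of these markers 1 was called lower, and in cancer 4 Krt5 at 574, Krt14 at 403 and Trp63 at 21 FPKM were above every control. Their part in these values was not tested.

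Because EP4 signals through cyclic AMP, 14 genes that cyclic AMP or other acute signals are known to induce were described, and all 14 were tested. Limma called 3 higher and 1 lower, or 28.6% beside 34.5% of all genes, and the median log2 fold change was 0.047. With TPM 6 were called higher and 1 lower, where 50% of all genes were called higher and 3.68% lower. The median with TPM was 0.91, beside 0.81 for all genes. Crem, a cyclic AMP responsive regulator, had FPKM of 32, 12, 24, 17 and 26 in the cancers, against 3, 3 and 2 in the controls (log2 fold change 2.60, SE 0.31, limma adjusted p = 0.0016). Nr4a1, an immediate early nuclear receptor, had 25, 17, 35, 7 and 25 FPKM and 2, 3 and 2 (log2 fold change 2.62, SE 0.46, limma adjusted p = 0.0058). All cancers were above all controls for both genes. Pde4b, which degrades cyclic AMP, rose from 1 FPKM in each control to 14, 5, 11, 4 and 8 (log2 fold change 2.11, SE 0.36, limma adjusted p = 0.0056). Fosb, the gene called lower, was at 1 FPKM in each control and listed at 0 in each cancer. It passed the filter only through the controls, so its call is no support for a fall, and without any control it was not tested and 0 genes of this list were called lower. The neuroendocrine markers Chga, Chgb, Scg2 and Syp, all 4 of them called higher, summed to 7722 to 17143 FPKM in the cancers and 122 to 184 in the controls, and their part in these rises was not tested.

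**Figure D5:**
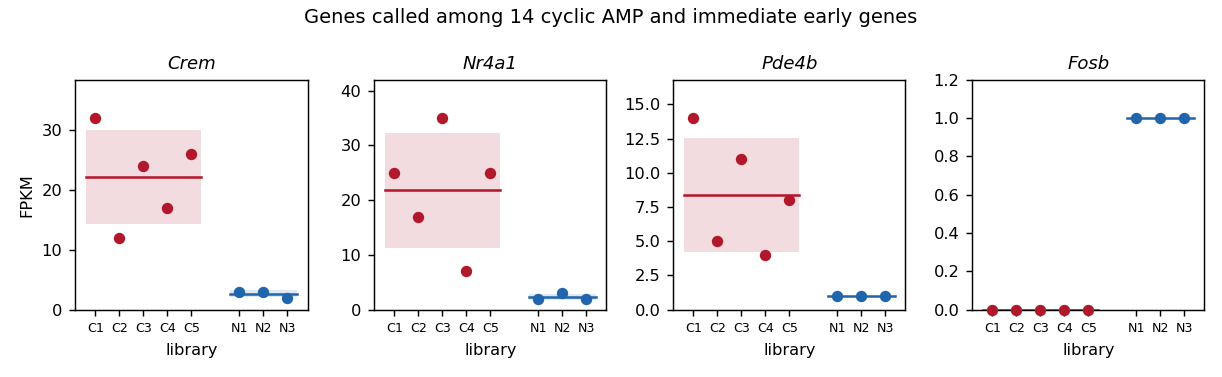
Deposited FPKM of the 4 genes called among 14 cyclic AMP and immediate early genes, by library, with the mean (line) and SD (shading) of each group. Crem is at 12 to 32 in the cancers and 2 to 3 in the controls, and Fosb is at 0 in each cancer and 1 in each control.

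For each called member, the pair of genes with the most similar profile was found by the root mean square difference of centred log2(FPKM + 1) over the 8 samples. For Ptger4 these were Mcm3, a subunit of the replicative helicase, at a difference of 0.085, and Rfc5, of the clamp loader, at 0.11. Mcm3 had FPKM of 32, 25, 30, 20 and 20 in the cancers, against 10, 11 and 9 in the controls, lowest in cancers 4 and 5 as Ptger4 was. For Ptges2 they were Rab43 at 0.11 and Ablim1 at 0.13, and for Ptger3 Gal3st4 and Lipo1, both at 0.19. Such neighbours were picked from 14357 genes by their likeness.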

How the data were processed

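Tissue RNA was polyA selected and sequenced per the labels. The authors trimmed reads with cutadapt 1.8, and the submitters' processing notes also name TopHat2 2.0.13, Cuffnorm 2.2.1 and mm10. The cuffnorm normalization option and the use of strand are not given in the sources used here. The deposited values are FPKM rounded to whole numbers by the authors, treated as a score and not as counts, and their depth is unknown.

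The 14357 genes that reached 1 FPKM in 3 or more samples were fitted with limma 3.58.1 under R 4.3.3, as log2(FPKM + 1), by lmFit and a trended eBayes. Adjustment by Benjamini-Hochberg was over all of them, and the threshold was 0.05. Log2 fold changes on this scale understate changes of low genes. Single genes were also compared by an exact permutation test with its 56 arrangements. Simulated data for this comparison were run on 13983 genes, of which 188 were changed by 3 on the log2 scale. Of these, 163 were called, all in the right direction, and unchanged genes made up 7.91% of calls. Smaller changes, such as those of the called members, were not simulated. Nor were data with as many changed genes as were called here.

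The members and lists were chosen with earlier results of these data known. Named were all members, the list genes past the threshold (up to 6 per list and direction) and 2 neighbours per called member. Other named genes were chosen after their values were seen. A marker and values of a further gene are not reported here. Listed starts count from 0 and are given here from 1. Motifs were searched in Python 3.11.15. Alternatives were pseudocounts of 0.1 and 0.01, no filter, a mean FPKM of at least 5, TPM, quantile normalization, a replicate block, array weights, eBayes with no trend and leaving out each sample.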

Additional observations from a re-analysis of the deposited data

Results flagged for a closer look

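Of the members and list genes, 53 varied among the cancers, and 8 of them had 1 of the 5 cancers far from the other 4, judged by its gap to the nearest cancer as a share of the range of the 5 on the log2(FPKM + 1) scale. A chance rate of about 1 in 20 such groups, or 2.65 here, holds for continuous values. In rounded FPKM, 4 cancers that share a value give a gap of 1.0 however small the difference. The 8 flags therefore cannot be set against that rate. Of the 8 genes, 0 were members. Among the phospholipases, Pla2g2a stood at 194 FPKM in cancer 2 and at 0 in the other cancers, and Pla2g5 at 8 FPKM in cancer 2 and 0 in the others, both with a gap of 1.0 of the range. The thromboxane synthase Tbxas1 was set apart in cancer 2 at 3 FPKM (gap 1.0). In cancer 1, Akr1b3 at 2 FPKM and Ptgir at 1 FPKM stood apart (gap 1.0 for both), and in cancer 5 Tbxa2r at 0 (gap 1.0) and Ptgr2 at 11 FPKM (gap 0.776). Ptges3 was apart in cancer 4 at 108 FPKM (gap 0.735). The gaps of Tbxas1, Akr1b3, Ptgir and Tbxa2r span few steps of the rounded scale.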

How the results depend on the processing

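Across the alternatives, values and counts that answer a comparison kept their range in 83 cases and moved in 20. The 4948 changed genes became 7704 with TPM (93.1% of them higher, against 47.0%), 8148 with array weights, and 2490 to 5252 without single samples. The 3 changed members became 2 to 3 without single samples. The 8 pathway genes became 14 with array weights. The 2 lipoxygenase genes became 1 with a pseudocount of 0.1, 0 with 0.01, 1 with a mean FPKM of at least 5, 5 with array weights and 1 to 4 without single samples. The 4 cyclic AMP genes became 7 with TPM and 7 with array weights. The difference in Ptger4 share of 27.2 percentage points was 30.9 over Ptger3 and Ptger4 alone, chosen after seeing the data. Causes of these moves were not tested.

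Replicate numbers did not pair the samples, with correlations of deviations of -0.021, -0.19 and -0.10 for numbers 1, 2 and 3. The fit with the number as a block gave 1534 changed genes and 1 changed member, Ptger4 (adjusted p = 0.044).

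Signs turned for 4 members that did not pass on the deposited scale, of which Ptgs1 and Ptger1 passed with TPM, and for Ptgr2. The Ptgs1 log2 fold change of -0.034 was 0.81 with TPM, 0.022 with the block and -0.26 to 0.10 without single samples. That of Ptgs2, 0.25, was -0.20 and -1.02 with pseudocounts of 0.1 and 0.01, -0.0047 with quantile normalization, -0.19 with array weights, -0.14 with the block and -0.27 to 0.48 without single samples. Ptges was -0.048 with quantile normalization, and with TPM Ptger1 was 0.61 and Ptgr2 0.24. Hpgd passed with array weights (-3.35, adjusted p = 0.0060). Rounding limits what can be said of Ptgs2, Ptges and Ptger3, whose values span few steps.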
